A study of Mus musculus with 16 samples.

Results

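*Areg* encodes amphiregulin, the tissue-repair product of group 2 innate lymphoid cells (ILC2s), and was followed through bulk mRNA-Seq of lung ILC2s from WT and *Pac1*-/- mice. It was taken from the table of raw counts by its Ensembl identifier ENSMUSG00000029378, so it is 1 gene of 51912 listed. The study asked how PAC1, a phosphatase encoded by *Dusp2*, shapes the response of ILC2s to an alarmin and to 2 neuropeptides. Mice of both genotypes were on the C57BL/6J background, and the study used sex- and age-matched animals of 6 to 8 weeks. The *Pac1* deletion was not restricted to ILC2s.

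The 16 libraries fell into 8 groups of 2, made of each genotype (WT, also written *Pac1*+/+, or *Pac1*-/-) and each of 4 stimulations lasting 4 hours. The first stimulation was IL-7 alone, a survival cytokine given to all groups. The second was IL-7 plus IL-33, the epithelial alarmin that activates ILC2s, and it is called IL-33 below. The remaining stimulations added to IL-7 and IL-33 either calcitonin gene-related peptide (CGRP) or neuromedin U (NMU), neuropeptides released by nerve endings, and they are called CGRP and NMU. Stimuli were used at 100 ng/mL for IL-7 and IL-33 and at 500 ng/mL for CGRP and NMU. Sorted lung ILC2s in culture were expanded for 1 to 2 weeks with IL-2 and IL-7 before stimulation, and about 500 ILC2s went into each library. No source used here says whether the 2 libraries of a group came from separate mice or cultures, so P values measure the spread between these libraries, which may be technical.

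Amphiregulin belongs to the epidermal growth factor family. It is made as a membrane-anchored precursor, is released by proteases of the ADAM family and binds the EGF receptor (EGFR) on epithelial and stromal cells, where it promotes growth and repair. ILC2s, regulatory T cells, mast cells and basophils are known sources in lung. CGRP acts through a receptor coupled to Gs, which raises cyclic AMP (cAMP) and leads to phosphorylation of the transcription factor CREB, which binds a short DNA motif called the cAMP response element (CRE). NMU acts through the receptor NMUR1, which is coupled to Gq and raises intracellular calcium.

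*Areg* lies on the forward strand of chromosome 5, from 91139599 to 91148432 in mm10 (GRCm38), with 1 annotated transcript of 6 exons and 1215 exon bases. No other annotated gene overlapped it (0 genes), and 0 other genes had a transcript stretch of 100 bases or more with an identity of 95% or more, so few of its reads could be shared with a second gene. Because the neuropeptide comparison below bears on cAMP, the promoter of *Areg* is shown from RefSeq (GRCm38.p6, chr5:91139349-91139648, forward strand, 250 bases before the gene start and 50 after it). Capitals mark the full CRE (TGACGTCA) and a TATA box (TATAAA).

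Areg promoter: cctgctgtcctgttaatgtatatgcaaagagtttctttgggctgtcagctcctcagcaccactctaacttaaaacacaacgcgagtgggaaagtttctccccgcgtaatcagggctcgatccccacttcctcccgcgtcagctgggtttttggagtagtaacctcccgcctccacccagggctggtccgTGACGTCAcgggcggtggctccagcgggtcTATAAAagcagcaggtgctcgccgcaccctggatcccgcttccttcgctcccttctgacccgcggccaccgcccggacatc

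The full CRE covered positions -61 to -54 from the gene start and the TATA box positions -31 to -26. The short form of the CRE, TGACG, was searched on both strands, like the other motifs. It lies inside each full CRE, once on each strand, and occurred at 1 further place in *Areg*, from -115 to -111. The AP-1 element TGANTCA did not occur in this window. Among all 32851 promoters of the same length in the table, 1.79% held the full CRE, 20.8% the short CRE, 13.6% the TATA box and 7.81% the AP-1 element. Of the genes described below that had a promoter entry, 3 others held the full CRE, and they are set beside *Areg* with 10 bases on either side, CRE in capitals.

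Areg (chr5:91139528-91139555, +): ggctggtccgTGACGTCAcgggcggtgg

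Errfi1 (chr4:150855009-150855036, +): ctgcgggcgtTGACGTCAcgttgtcgct

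Dusp1 (chr17:26508598-26508625, -): gtagggcgggTGACGTCAccgcccggtc

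Arl5b (chr2:15055189-15055216, +): aggcgcccgcTGACGTCAgcgcgccgac

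These matches describe letters in the reference genome. Binding of CREB was not measured.

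Libraries held 6764992 to 15963357 counts, the shallowest being both WT NMU libraries. All 9 ILC2 markers, among them *Gata3*, *Il1rl1* and *Rora*, were detected in every library, with a summed level of 7018 to 11359 CPM (counts scaled to a library total of 1000000). *Tbx21*, *Cd8a* and *S100a8*, which define type 1 lymphocytes, CD8 T cells and neutrophils, were at 0 in all 16. *Dusp2*, the deleted gene, was at 0 in 8 of 8 *Pac1*-/- libraries but also in 6 of 8 WT libraries, with at most 5.23 CPM, so it gave no check of the genotype labels. Both *Pac1*-/- CGRP libraries stood apart in the B cell markers *Ms4a1* (84.5 and 75.3 CPM, against 11.7 CPM or less in each other library) and *Cd79a* (21.6 and 17.5 CPM, against 6.15 CPM or less). Both WT NMU libraries stood apart in macrophage and neutrophil markers (28.9 to 112 CPM, nearly all *Lyz2*, against 3.72 CPM or less elsewhere) and in epithelial markers including *Sftpc* (173 to 308 CPM, against 83.3 CPM or less elsewhere). The main comparisons are therefore also given without these libraries. Each such fit compares only the other genotype with its own IL-33 libraries.

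*Areg* was abundant in every library and was highest with CGRP. Its raw counts were 1091 to 5285 per library, so the counting error alone was 1.38% to 3.03%. Counts were scaled to CPM with the trimmed mean of M values (TMM). With IL-7 alone, *Areg* was at 83.0 and 136 CPM in WT ILC2s and at 119 and 113 CPM in *Pac1*-/- ILC2s. With IL-33 it was at 104 and 109 CPM in WT and at 132 and 130 CPM in *Pac1*-/- ILC2s. The libraries with IL-7 and with IL-33 overlapped. The genotypes overlapped with IL-7, whereas with IL-33 both *Pac1*-/- libraries lay above both WT libraries. With CGRP *Areg* reached 471 and 498 CPM in WT and 478 and 531 CPM in *Pac1*-/- ILC2s, so all 4 CGRP libraries lay above the other 12. With NMU it was at 192 and 157 CPM in WT and at 202 and 242 CPM in *Pac1*-/- ILC2s, above all libraries with IL-7 or IL-33 and below all with CGRP. These are levels in bulk samples, in which fewer cells of a type and less RNA per cell cannot be told apart.

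**Figure D1:**
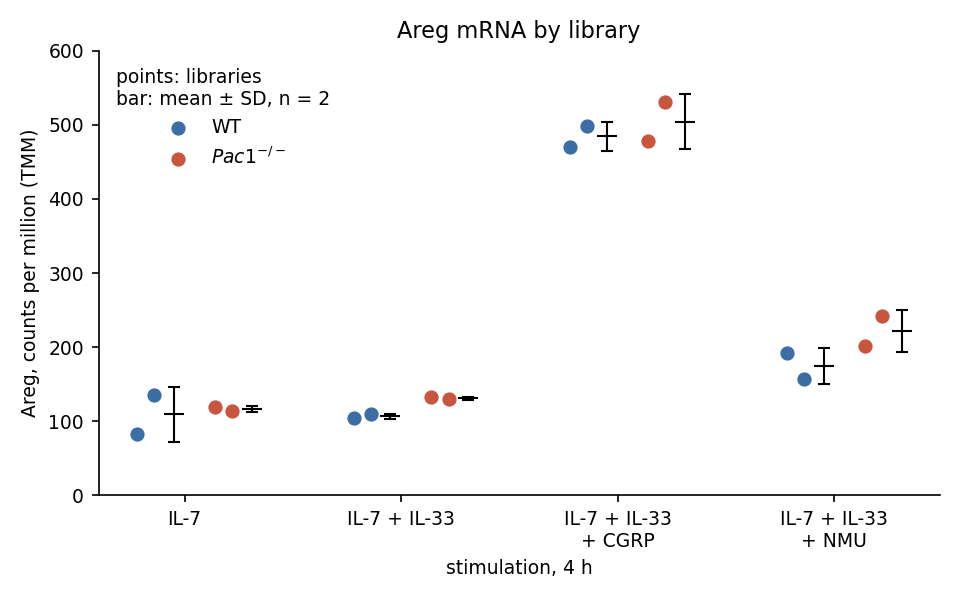
*Areg* level in CPM (linear axis from 0) by stimulation. Points are the 16 libraries in WT and *Pac1*-/- ILC2s, and bars give the mean ± SD of 2 libraries. The 4 CGRP libraries sit between 471 and 531 CPM, and the 4 NMU libraries between 157 and 242 CPM.

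The means over both genotypes were 113 ± 22.0 CPM with IL-7, 119 ± 14.3 with IL-33, 198 ± 34.8 with NMU and 494 ± 26.9 with CGRP (SD, n = 4 each). In this order IL-7 and IL-33 did not differ beyond their spread, while each later step separated the libraries fully. Per kilobase of exon, *Areg* was at 68.3 to 437 CPM per kb. Among the 14979 genes with enough counts to be tested, this put it at percentile 93.5 to 95.6 of the level per kb with IL-7, 94.4 to 96.6 with IL-33, 96.3 to 97.2 with NMU and 98.5 to 98.7 with CGRP. The level repeated well between libraries of a group, except in WT IL-7 (83.0 and 136 CPM, coefficient of variation 34.1%). The pooled SD of log2 CPM within groups was 0.208 for *Areg*, and 91.8% of the 634 genes of similar mean level (within 1.5-fold) had a larger SD, with a median of 0.339.

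The comparison of CGRP with IL-33 asked what the neuropeptide adds to the alarmin. *Areg* rose 4.18-fold (log2 fold change 2.06, SE 0.190, 95% interval 1.65 to 2.47; edgeR quasi-likelihood test, adjusted P value 6.99e-05, Benjamini-Hochberg over all genes), and all 4 CGRP libraries were above all 4 IL-33 libraries. A gene was called when its fold change exceeded 1.5 and its adjusted P value was under 0.05. By this rule 2.76% of the 14979 genes were called, 1.65% higher and 1.11% lower. *Areg* ranked 14th by P value among all genes and 95th by size among the 247 called higher. An exact permutation test of the 8 libraries gave P = 0.0286, the smallest value that 4 against 4 allow, and 0.0343 after adjustment over the 6 pairs of stimulations. Without the *Pac1*-/- CGRP libraries, the log2 fold change in WT ILC2s alone was 2.19 (edgeR, adjusted P value 0.00820).

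Each genotype showed the rise on its own. It was 4.54-fold in WT ILC2s (log2 2.18, SE 0.270, edgeR adjusted P value 0.00346) and 3.85-fold in *Pac1*-/- ILC2s (log2 1.94, SE 0.267, edgeR adjusted P value 0.00403), where 0.461% and 1.14% of genes were called. Fitted on only the 4 libraries of each comparison, the values were 2.21 and 1.95 but neither passed (edgeR adjusted P values 0.180 and 0.153). Against IL-7 alone the rise with CGRP was 4.39-fold (log2 2.13, edgeR adjusted P value 8.68e-05), and 2.64% of genes were called.

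Markers of other cells that make *Areg* were also read in these libraries. The 5 mast cell and basophil markers summed to 151 to 190 CPM in WT CGRP and 79.3 to 84.2 CPM in *Pac1*-/- CGRP libraries, against 42.8 to 77.9 CPM with IL-33. Nearly all of it was *Cpa3*, a mast cell protease gene, whose log2 fold change was 1.02 (edgeR adjusted P value 0.0881). The defining basophil genes *Mcpt8* and *Prss34* were at 0 in 15 and 16 libraries, and *Ms4a2*, a chain of the IgE receptor, in 14. *Fcer1a*, another chain of that receptor, was at 0 in 9 libraries and highest, at 15.6 CPM, in WT CGRP replicate 2. The 5 T cell markers were highest with IL-7 (77.0 to 112 CPM, mostly *Cd3d*) and lay at 24.4 to 28.2 CPM in WT and 5.07 to 19.0 CPM in *Pac1*-/- libraries with CGRP, against 14.5 to 14.7 CPM in WT and 4.97 to 7.91 CPM in *Pac1*-/- libraries with IL-33. *Foxp3*, which defines regulatory T cells, did not exceed 1.06 CPM. The B cell marker *Ms4a1* was at 0 and 11.7 CPM in the WT CGRP libraries. The immunoglobulin gene *Igkv19-93*, chosen after its values were seen, was at 63.1 to 94.9 CPM in all 4 CGRP libraries and at or below 0.0872 CPM in the other 12. The part of these marker genes in the result was not tested.

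NMU gave a smaller and less certain difference. *Areg* was 1.66-fold higher with NMU than with IL-33 (log2 0.73, SE 0.184, 95% interval 0.34 to 1.13), which did not pass (edgeR adjusted P value 0.212, unadjusted 0.00151), in a comparison where 0.187% of genes were called. The 4 NMU libraries lay above all 4 IL-33 libraries, and the exact permutation test gave P = 0.0286 and 0.0343 adjusted over 6 pairs. DESeq2 on the same counts gave a log2 fold change of 0.72 with an adjusted P value of 0.00986, which would pass. Within genotypes the log2 values were 0.71 in WT (edgeR adjusted P value 1) and 0.76 in *Pac1*-/- ILC2s (edgeR adjusted P value 0.529), where 0.0134% and 0.107% of genes were called. Against IL-7 alone, NMU gave 0.80 (edgeR adjusted P value 0.0723), and 0.734% of genes were called. Without the WT NMU libraries, with their *Lyz2* and *Sftpc*, the value in *Pac1*-/- ILC2s alone was 0.76 (edgeR adjusted P value 0.445).

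The neuropeptides themselves differed. *Areg* was 2.51-fold higher with CGRP than with NMU (log2 1.33, SE 0.186, 95% interval 0.93 to 1.73, edgeR adjusted P value 0.00111), where 5.47% of genes were called. IL-33 against IL-7 gave a log2 fold change of 0.07 (95% interval -0.33 to 0.46, edgeR adjusted P value 1, exact permutation P = 0.657). In that comparison 0.0334% of genes were called. The interval reached up to a 1.38-fold rise.

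**Figure D2:**
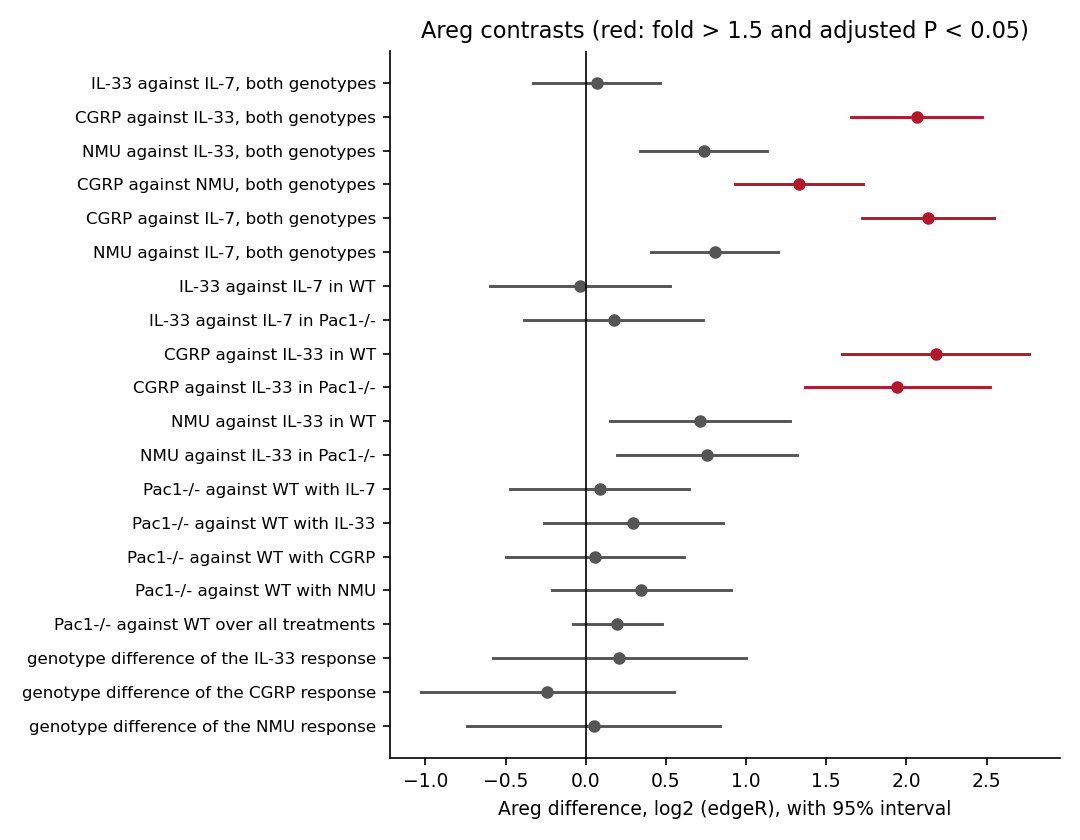
Differences of *Areg* on the log2 scale (horizontal axis) for 20 contrasts of the edgeR fit over all 16 libraries, with 95% intervals. Red marks contrasts that were called, which are the 5 that set CGRP against another stimulation, from 1.33 to 2.18.

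Loss of *Pac1* was not followed by a called change of *Areg* under any stimulation. The log2 difference of *Pac1*-/- from WT was 0.09 with IL-7 (95% interval -0.47 to 0.65), 0.30 with IL-33 (-0.26 to 0.86), 0.06 with CGRP (-0.50 to 0.62) and 0.35 with NMU (-0.21 to 0.90). In these comparisons 0.00668%, 0.00668%, 0.107% and 0.02% of all genes were called. Over all stimulations it was 0.20 (SE 0.129, 95% interval -0.08 to 0.48, edgeR adjusted P value 0.901), where 0.113% of genes were called. The mean in *Pac1*-/- ILC2s was the higher one in all 4 stimulations, and an exact permutation of the genotype within stimulations gave a mean difference of 0.21 on the log2 CPM scale with P = 0.0478. That P value rose to 0.0633 on CPM without TMM, and leaving out single libraries gave values from 0.00309 without WT IL-7 replicate 2 to 0.205 without WT IL-7 replicate 1. In 12 of the 16 repeats it was above 0.05.

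The response to CGRP was set against genotype directly, since the study followed PAC1 in CGRP signaling. The rise in *Pac1*-/- ILC2s minus that in WT ILC2s was -0.24 on the log2 scale (95% interval -1.03 to 0.55, edgeR adjusted P value 1). For IL-33 this difference of responses was 0.21 (-0.58 to 1.0) and for NMU 0.05 (-0.74 to 0.84), also with edgeR adjusted P values of 1. In edgeR, 0 of the 14979 genes passed each of these tests of a difference (0% called). Before adjustment, 726, 905 and 813 genes had P under 0.05 for IL-33, CGRP and NMU, and DESeq2 called 20, 131 and 28.

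*Areg* had the highest level among the EGFR ligands in all 16 libraries. The family list held 7 ligands, of which 6 were tested, and *Areg* alone was called with CGRP, against 1.65% of all genes called higher. *Hbegf*, which encodes heparin-binding EGF-like growth factor, was the next in level. It was at 12.4, 21.6, 0 and 30.0 CPM with IL-7 and at 28.6, 35.3, 20.95 and 23.9 CPM with IL-33 (WT first, then *Pac1*-/-). With CGRP it was at 1.69, 7.35, 21.8 and 4.78 CPM, and with NMU at 49.0, 53.6, 61.1 and 41.5 CPM. The NMU libraries were thus the highest for *Hbegf*, where for *Areg* the CGRP libraries were.

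The log2 difference of *Hbegf* between CGRP and NMU was -2.72 (95% interval -5.05 to -0.40) and did not pass (edgeR adjusted P value 0.179). In this comparison DESeq2 called 1 of the 6 tested ligands higher and 1 lower, and 1886 of all 14979 genes. *Egf*, *Tgfa*, *Btc*, *Ereg* and *Epgn*, the other ligands, were at most 9.86 CPM in any library and at 0 in 7, 8, 12, 15 and 11 libraries. With 5 of 7 ligands at or near 0, a median of fitted changes over the list is not given. *Epgn*, *Ereg* and *Btc* are also the neighbours of *Areg* on chromosome 5, *Ereg* lying 46.0 kb upstream and *Btc* 209 kb downstream. The nearest expressed genes on either side were *Mthfd2l*, 118 kb upstream with a median of 18.3 CPM, and *Rchy1*, 800.5 kb downstream with a median of 150 CPM.

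The receptors for these ligands were nearly silent. *Egfr*, which binds amphiregulin, did not exceed 0.406 CPM and was at 0 in 12 libraries. *Erbb2* and *Erbb4* stayed at or below 0.893 and 1.38 CPM, and *Erbb3*, the only tested receptor of 4, at or below 5.54 CPM. A floor of 3 counts equals 0.188 to 0.443 CPM in these libraries, and *Egfr* was at or under this floor in 14 of the 16 libraries.

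The genes for release of the ligand were read in these libraries. *Adam17*, the main protease that sheds amphiregulin, had a median of 35.9 CPM but ranged from 0.129 to 62.9 CPM. With CGRP it was at 62.9 and 37.1 CPM in WT and at 14.9 and 0.129 CPM in *Pac1*-/- ILC2s. With IL-33 it was at 36.7 and 39.0 CPM in WT and at 46.6 and 49.0 CPM in *Pac1*-/- ILC2s. *Adam10* ranged from 45.2 to 113 CPM. *Cnih1*, a cornichon protein for export from the endoplasmic reticulum, had a median of 222 CPM. *Rhbdf2*, which encodes the iRhom2 partner of ADAM17, had a median of 2.30 CPM. Of the 6 genes of shedding and traffic, all tested, 0 were called over both genotypes with CGRP or NMU against IL-33 in edgeR or DESeq2, and before adjustment 0 had P under 0.05, against 2.76% and 0.187% of all genes called. In *Pac1*-/- ILC2s alone, CGRP against IL-33 gave 0 called and 1 lower before adjustment, against 1.14% of all genes called.

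Of 4 feedback inhibitors of EGFR signaling, all tested, 0 were called with CGRP against IL-33 in edgeR, 1 higher by DESeq2 and 1 higher before adjustment, against 1.65% of all genes called higher and 1.11% lower. *Errfi1* encodes MIG6, which binds and inhibits active EGFR, and its mean was 20.7 CPM with IL-7, 28.1 with IL-33, 90.2 with CGRP and 49.2 with NMU (n = 4 each). The CGRP libraries were widely spread, at 91.0, 26.0, 70.5 and 173 CPM, and 1 of them (WT replicate 2) lay among the IL-33 libraries. The log2 fold change of CGRP against IL-33 was 1.59 (95% interval 0.71 to 2.47) and did not pass in edgeR (adjusted P value 0.0590). The list median was 0.64, against -0.09 over all genes.

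**Figure D3:**
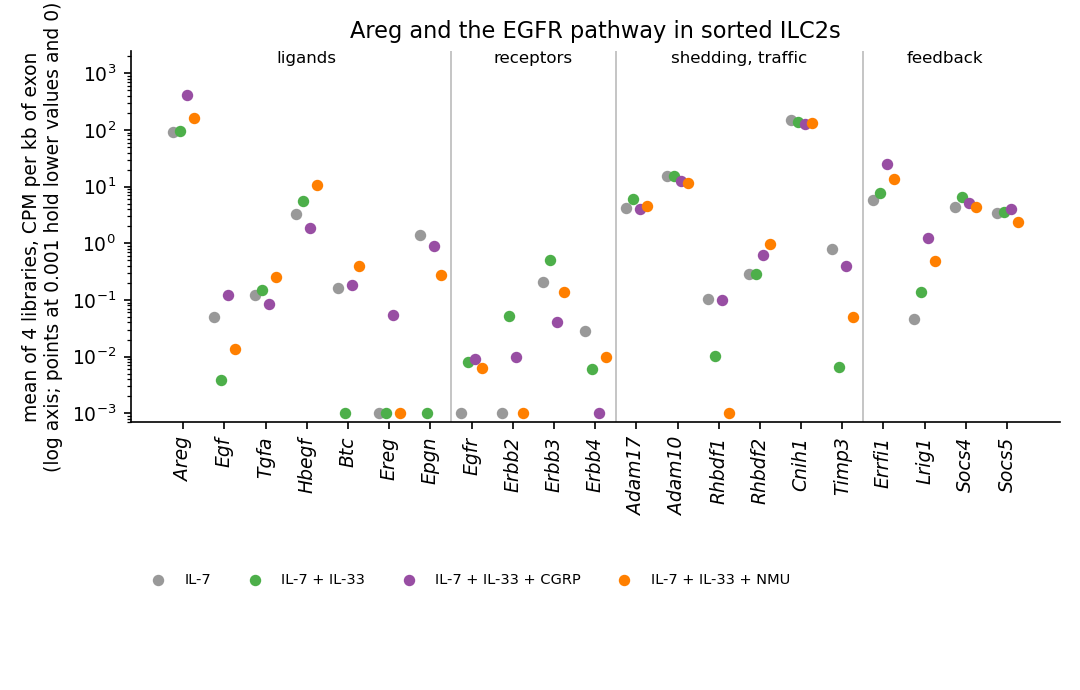
Mean level of 4 libraries per stimulation for EGFR ligands, receptors, shedding and traffic genes and feedback inhibitors, in CPM per kb of exon on a log axis, where points at 0.001 stand for that value or less, 0 included. *Areg*, at up to 407 CPM per kb, lies above all other ligands and receptors.

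Most of the genes listed as known CREB targets rose with CGRP. Of 15 such genes, all tested, 10 were called higher with CGRP than with IL-33 and 0 lower, against 1.65% and 1.11% of all genes. Their median log2 fold change was 1.69, against -0.09 over all genes. *Rgs2*, a regulator that dampens G protein signaling, was at 1256 and 1088 CPM in WT and 933 and 646 CPM in *Pac1*-/- ILC2s with IL-33. With CGRP it was at 3949 and 3899 CPM in WT and 6051 and 4921 CPM in *Pac1*-/- ILC2s, a log2 fold change of 2.27 (95% interval 1.94 to 2.60, edgeR adjusted P value 1.7e-05). The CGRP libraries lay above all others for *Rgs2*.

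*Fos*, an immediate early gene of the AP-1 family, rose by 3.70 on the log2 scale, from 24.6 to 48.8 CPM with IL-33 to 410 to 592 CPM with CGRP. Its partner *Fosb* rose by 3.67. The orphan nuclear receptor genes *Nr4a1*, *Nr4a2* and *Nr4a3* rose by 1.58, 3.25 and 3.04, and the stress-response factor *Atf3* by 3.26. *Dusp1*, a phosphatase gene with a full CRE, rose by 2.02. *Pde4b*, which encodes a phosphodiesterase that degrades cAMP, rose by 1.42, but its call was lost when any of 6 of the 8 libraries was left out (edgeR adjusted P values up to 0.114). *Crem*, the CREB family member that carries its own inducible promoter, rose by 0.77, and lost its call without WT IL-33 replicate 1 (edgeR adjusted P value 0.0610). *Gem*, *Sik1*, *Pde3b*, *Pde4d* and *Per1* were not called.

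Leaving out both *Pac1*-/- CGRP libraries, which compares WT ILC2s only, 5 of the 15 were still called (*Rgs2*, *Fos*, *Fosb*, *Nr4a3* and *Atf3*). The number called in the whole table was then 58. With all 16 libraries fitted, the comparison within WT called 7 of the 15 and 69 of all genes. The comparison over both genotypes called 10 and 413. With NMU against IL-33, 0 of 15 were called in edgeR, with 2 higher and 1 lower at P under 0.05 before adjustment and 1 higher by DESeq2. The median was -0.04, against -0.08 over all genes, where 0.154% of genes were called higher and 0.0334% lower. CGRP against NMU gave 10 of 15 higher, against 2.63% of all genes. In RefSeq, 11 of the 15 genes had a promoter entry. Of these, 10 held a short CRE, against 23.0% of all 27025 genes with an entry, and 1, *Dusp1*, held the full one. The genes were listed as known CREB targets, so the choice of list itself favors a high share.

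**Figure D4:**
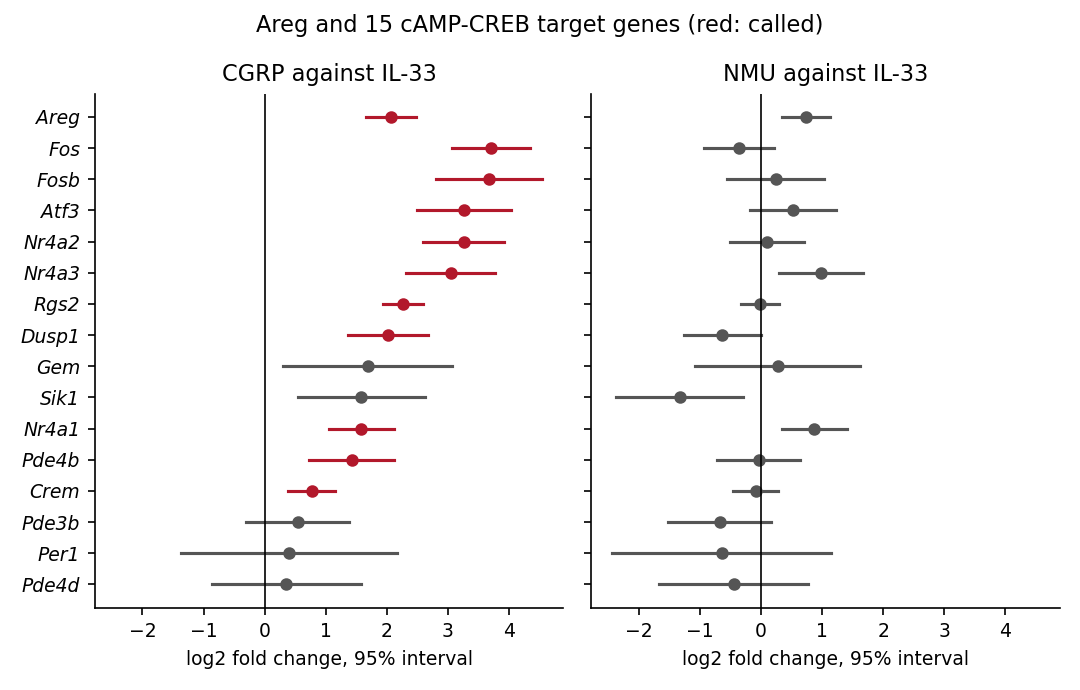
Log2 fold change (horizontal axis) with 95% interval of *Areg* and 15 cAMP-CREB target genes for CGRP against IL-33 (left) and NMU against IL-33 (right), red where called. With CGRP *Areg*, drawn at the top (2.06), lies near *Rgs2* (2.27) and *Dusp1* (2.02), and on the NMU side no gene is red.

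The ILC2 cytokine genes moved in both directions with CGRP. Of 11 cytokine genes, 10 were tested. CGRP against IL-33 gave 5 called higher and 2 lower, against 1.65% and 1.11% of all genes, with a median log2 fold change of 1.11 against -0.09 over all genes. NMU against IL-33 gave 8 higher and 0 lower in edgeR and in DESeq2 (9 and 0 before adjustment), against 0.154% and 0.0334% of all genes, with a median of 3.0 against -0.08. *Il13*, which drives mucus and airway hyperreactivity, was at 18.7, 30.5, 32.3 and 38.7 CPM with IL-33 and at 6.68, 14.6, 9.03 and 5.04 CPM with CGRP (WT first). It fell by 1.77 on the log2 scale with CGRP (edgeR adjusted P value 0.0461) and rose by 2.78 with NMU (0.0244). *Il9* fell by 5.41 with CGRP and rose by 4.28 with NMU.

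*Il5*, the eosinophil growth factor, rose by 1.61 with NMU and was not called with CGRP against IL-33. *Csf2*, which encodes GM-CSF, rose with both neuropeptides when the genotypes were pooled, by 1.11 with CGRP and 1.47 with NMU. In WT ILC2s it was at 1882 and 1056 CPM with NMU and at 1081 and 1688 CPM with IL-33, which overlap. In *Pac1*-/- ILC2s it was at 6407 and 3869 CPM with NMU and at 781 and 630 CPM with IL-33. Its call with CGRP was lost without both *Pac1*-/- CGRP libraries, within WT only (0.58, edgeR adjusted P value 0.53). Its call with NMU was lost when only the libraries compared were fitted (edgeR adjusted P value 0.159). *Il2* and *Il4* rose with both as well, by 6.34 and 3.66 with CGRP and by 5.10 and 3.21 with NMU. *Il3* was at 0 in all 8 libraries with IL-7 or IL-33 and had a mean of 90.3 CPM with CGRP. With NMU it was at 0.154 and 0.111 CPM in WT and at 77.3 and 54.2 CPM in *Pac1*-/- ILC2s. Its call with NMU was lost when only the libraries compared were fitted (edgeR adjusted P value 0.0761). *Il17a* was also called with both, but its call with CGRP was lost without WT CGRP replicate 1 (edgeR adjusted P value 1). Without both *Pac1*-/- CGRP libraries, within WT only, 3 cytokines were called higher and 1 (*Il9*) lower, and *Il13* was at -1.21 (edgeR adjusted P value 0.485). With all libraries fitted, the comparison within WT also called 3 higher and 1 lower. Without both WT NMU libraries, within *Pac1*-/- only, 6 were called higher with NMU. *Il13* (3.19, edgeR adjusted P value 0.147) and *Il17a* (edgeR adjusted P value 0.158) then lost their calls. With all libraries fitted, the comparison within *Pac1*-/- also called 6 higher.

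Few of the other repair genes were called. Of 12 repair and growth factor genes, 11 were tested. With CGRP against IL-33 the list median was 0.74, against -0.09 over all genes. *Fgf2*, *Hgf* and *Pdgfb* were at 0 in 11, 9 and 7 libraries, so this median rests partly on genes near 0. In the same comparison 0 of the 11 were called higher in edgeR (1 before adjustment and 1 by DESeq2) and 2 lower, against 1.65% and 1.11% of all genes. The 2 were *Penk*, the proenkephalin gene, at 162, 63.0, 46.1 and 19.9 CPM with IL-33 and at 13.1, 4.17, 0 and 0 CPM with CGRP, and *Lgals3*, the galectin-3 gene, which fell by 1.82. Both calls were lost without the *Pac1*-/- CGRP libraries, within WT only, at -3.69 for *Penk* (edgeR adjusted P value 0.104) and -2.05 for *Lgals3* (0.180). With all libraries fitted, the comparison within WT also called 0 of the repair genes lower. The call of *Lgals3* was also lost when only the libraries compared were fitted (edgeR adjusted P value 0.0729). *Arg1*, which encodes arginase 1, rose with NMU by 1.33 on the log2 scale (edgeR adjusted P value 0.0377). It lost its call without WT IL-33 replicate 2 (edgeR adjusted P value 0.0750) and, within *Pac1*-/- only, without both WT NMU libraries (0.128). *Vegfa*, *Igf1*, *Tgfb1*, *Pdgfb*, *Fgf2*, *Hgf*, *Lif* and *Osm* were not called in either comparison. Between genotypes, over all stimulations, *Lgals3* was higher in *Pac1*-/- ILC2s by 2.31 on the log2 scale (edgeR adjusted P value 0.00405). *Il9* was lower on average, at -1.52 (edgeR adjusted P value 0.0258), but not under every stimulation. Both *Pac1*-/- libraries lay below both WT libraries with IL-33 and with CGRP, where they were at 0.812 and 0.259 CPM. With IL-7 *Il9* was at 304 and 315 CPM in *Pac1*-/- and at 297 and 283 CPM in WT libraries. With NMU the genotypes overlapped, at 4795 and 2935 CPM in *Pac1*-/- and 3286 and 2085 CPM in WT libraries.

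The genes whose levels followed *Areg* most closely were sought over the 4879 genes with a mean of 20 CPM or more. The measure was Pearson's r of log2 CPM over the 16 libraries, given as a description without a test, since the points share libraries, stimulations and depth. The median r was -0.12, and 8 genes exceeded 0.9. *Spry2*, a feedback inhibitor of receptor tyrosine kinase and ERK signaling, was the closest (r = 0.97). It had means of 108 CPM with IL-7, 112 with IL-33, 570 with CGRP and 239 with NMU, an order like that of *Areg*. *D16Ertd472e* followed (0.95), then *Cd69*, an early activation marker (0.94), and *Map3k8*, a kinase gene upstream of ERK (0.91).

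*Arl5b*, a small GTPase gene (0.91), *Zfp36*, whose product destabilizes cytokine mRNAs (0.91), *Gadd45b*, a stress-response gene (0.91), *Rgcc* (0.90) and *Il3* (0.89) were also among the first 10. *Cd69* had means of 207 CPM with IL-33, 2039 with CGRP and 433 with NMU. Of the first 10, 8 were also among the first 10 over the means of the 8 groups, where *Arl5b* came first (0.98). *Nr4a3* was 12th (0.89), *Atf3* 22nd (0.86) and *Fos* 70th (0.79). The opposite pattern was strongest for *Yme1l1*, a mitochondrial protease gene (-0.91), *Ccng1* (-0.88), *Tph1*, which encodes the enzyme of peripheral serotonin synthesis (-0.87), *Cast* (-0.86) and *Atp6ap2* (-0.85). *Tph1* had means of 393 CPM with IL-33, 45.1 with CGRP and 361 with NMU.

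**Figure D5:**
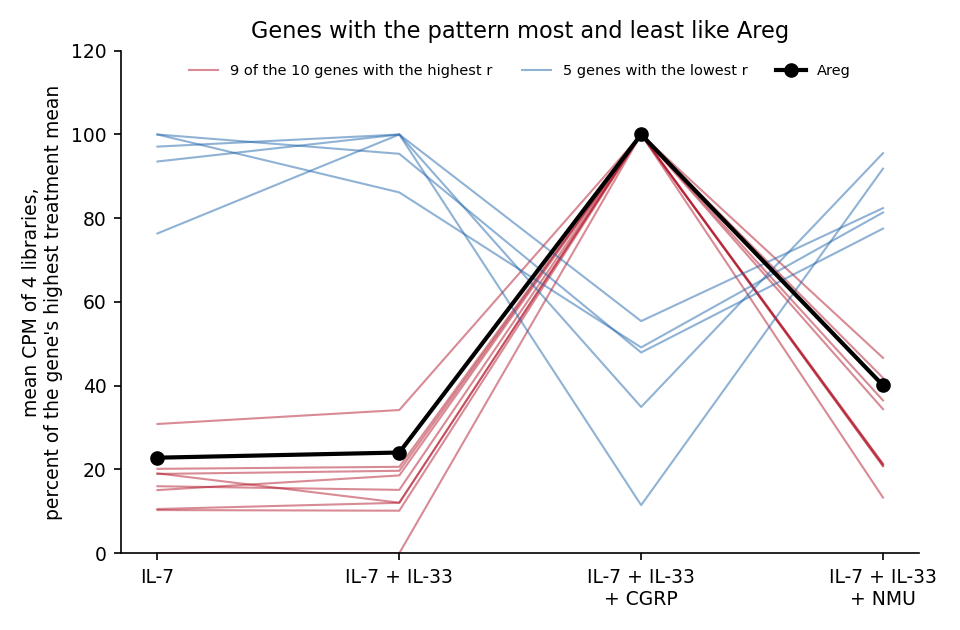
Mean CPM of 4 libraries by stimulation, as a percent of each gene's highest stimulation mean (linear axis from 0), for *Areg* (black), 9 of the 10 genes with the highest r (red) and the 5 with the lowest (blue). All 9 red genes were highest with CGRP, and the 5 blue genes were lowest there.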

How the data were processed

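Per the study's methods, ILC2s were sorted from lung, full-length cDNA was amplified, libraries were sequenced as paired-end reads, and HISAT2 was used by the authors for alignment to mm10. The counting tool, annotation release and use of strand are not given in the sources used here. The deposited values are raw counts per Ensembl gene and library. The authors' own tests used DESeq2.

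Symbols came from GENCODE M21 (51719 of 51912 identifiers found). Genes were filtered with filterByExpr by group, leaving 14979, and scaled by TMM. One edgeR 4.0.16 quasi-likelihood model of 8 group means over all 16 libraries (R 4.3.3) gave every contrast, with Benjamini-Hochberg adjustment over all genes. Log2 CPM used a prior count of 2. Exact permutation tests (scipy 1.17.1) were two-sided. Transcripts were compared with BLAST 2.17.0. The fitting script was tested on simulated data. Alternatives were DESeq2 1.42.0, RLE factors, no filter, a minimum of 10 counts in every library, the replicate number as a block, only the libraries compared, and leaving out each library. Fits without the Pac1-/- CGRP or the WT NMU libraries were chosen after seeing the data and compared the remaining genotype only. *Areg*, the gene lists and the rules for named genes were chosen with earlier results of these data known. Named genes were *Areg*, list members that were called or have a stated role, up to 3 neighbours a side, and the 10 highest and 5 lowest by r, of which 1 is not reported here, like 1 B cell marker. Intervals of counts cover counting error only.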

Additional observations from a re-analysis of the deposited data

How the results depend on the processing

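*Areg* kept its call with CGRP against IL-33 under DESeq2, RLE factors, both count filters, the replicate block (log2 fold change 2.06) and without each library in turn (2.01 to 2.09). Fitted on only the libraries compared, it was 2.21 in WT and 1.95 in Pac1-/- ILC2s and no longer passed. The cause of this and of the other changes was not tested. With NMU, *Areg* passed against IL-33 with DESeq2 (0.72) and against IL-7 with DESeq2 (0.79) and with 10 counts in every library (0.79). The genotype difference of the NMU response, 0.05, changed sign with DESeq2 (-0.016), RLE factors (-0.016), 10 counts in every library (-0.028) and no filter (-0.0077), and the permuted genotype difference was 0.25 on CPM without TMM.

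Leaving out single libraries gave these log2 ranges for the exact permutation test, in which 3 against 4 cannot pass: 2.0 to 2.12 for CGRP against IL-33, 2.01 to 2.25 for CGRP against IL-7, 1.23 to 1.43 for CGRP against NMU, 0.63 to 0.83 for NMU against IL-33, 0.68 to 0.92 for NMU against IL-7, -0.049 to 0.19 for IL-33 against IL-7 and 0.12 to 0.30 for genotype. In the edgeR fit the ranges that crossed 0 were -0.34 to 0.37 for IL-33 against IL-7 in WT, -0.078 to 0.28 in both genotypes, -0.21 to 0.50 for genotype with IL-7, -0.034 to 0.14 for genotype with CGRP, -0.19 to 0.52 for the genotype difference of the IL-33 response and -0.12 to 0.19 for that of the NMU response. WT IL-7 replicates 1 and 2, at 83.0 and 136 CPM, set the ends of 4 of these 6.

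Of the cytokines called with CGRP, 3 instead of 5 were higher with 10 counts in every library. With only the libraries compared, and with the replicate block, 1 instead of 2 was lower. Under the block *Il13* missed (edgeR adjusted P value 0.0646). Without the Pac1-/- CGRP libraries, 3 were higher and 1 lower, the same numbers as within WT in the main fit. With NMU, 5 instead of 8 were higher with 10 counts in every library. Of the cAMP-CREB targets, 10 were called in the main fit, 7 within WT, and 5 within WT without the Pac1-/- CGRP libraries. The block changed no call of *Areg*, and the replicate numbers did not pair the samples: over 28 pairs of groups the deviations correlated at -0.064 to 0.039. The number of genes called with CGRP against IL-33 was 413, and 1303 with DESeq2, 845 without a filter, 199 with only the libraries compared, 851 without Pac1-/- CGRP replicate 1 and 779 without WT CGRP replicate 2. For NMU against IL-33 it was 28, and 220 with DESeq2, 116 without a filter, 53 with 10 counts in every library, 14 with only the libraries compared and up to 70 without Pac1-/- IL-33 replicate 1. For CGRP against NMU it was 820, and 1886 with DESeq2, 1318 without a filter, 525 with only the libraries compared and 1238 without Pac1-/- CGRP replicate 1. For IL-33 against IL-7 it was 5, and 296 with DESeq2, 199 without a filter, 10 with only the libraries compared and 2 with the block. It was up to 62 without Pac1-/- IL-7 replicate 2. For genotype it was 17, and 134 with DESeq2, 117 without a filter and up to 103 without Pac1-/- CGRP replicate 1.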
